A study of Caenorhabditis elegans with 24 samples.

Results

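The insulin-like peptide genes of Caenorhabditis elegans encode small secreted hormones of the insulin family. They were taken as the genes whose symbol starts with ins- or is daf-28 and which had a probe set annotated to that gene alone, with the probe set of highest mean intensity standing for the gene. The gene table held 40 genes of the family, 1 of them a pseudogene, and 24 were measured, by 25 probe sets, among the 17118 genes with a probe set of their own. The other 16 genes (ins-8, ins-9, ins-10, ins-12 to ins-16, ins-19, ins-20, ins-25, ins-27 to ins-29, ins-36 and ins-38) were not analysed here.

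Transcripts were measured in whole animals of 3 strains on single-channel Affymetrix arrays, 24 in all. The groups were glp-1, a point mutant (strain JK1107), exposed to UV or kept as a control, xpa-1, a deletion mutant (strain RB864, outcrossed 3 times), exposed to UV or kept as a control, and wild-type N2, exposed to UV or kept as a control. All animals grew at 25°C and were used as young adults 24 h past the vulval crescent stage of L4. The irradiated animals received UVC at 50 J/m2 from a source peaking at 254 nm and were frozen 3 h later. Each group held 4 arrays, 2 from 2008, with 100 ng of total RNA amplified, and 2 from 2007, with 500 pg amplified by another kit. The labels do not say whether replicates were separate cultures, so p-values measure the spread between these samples, which may be technical. The Notch receptor GLP-1 maintains the dividing stem cells of the germ line, and glp-1 mutants lack most of the germ line at this temperature, and xpa-1 encodes a factor of nucleotide excision repair.

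Insulin-like peptides are made mainly in neurons and the intestine and act on DAF-2, the insulin and IGF receptor of the worm. Peptides that activate DAF-2 drive the kinases AGE-1 and AKT, which keep the transcription factor DAF-16 (FOXO) out of the nucleus and favour growth and reproduction. Peptides that antagonise DAF-2 leave DAF-16 active, which favours the dauer stage, stress resistance and long life. Animals without a germ line live long, and this needs daf-16. Known agonists are daf-28, ins-3, ins-4, ins-6, ins-7, ins-9, ins-32, ins-33 and ins-35, and known antagonists are ins-1, ins-17, ins-18, ins-37 and ins-39. Several of the genes lie side by side in the genome: in the order of the gene table (assembly WBcel235), no other gene stood between ins-2, ins-3, ins-4, ins-5 and ins-6, between ins-21, ins-22 and ins-23, or between ins-24, ins-30 and ins-26.

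Levels are given as log2(normalized intensity + 32), a scale on which 5.00 is the lowest possible value and on which changes of dim genes are understated. Median deposited intensity was 68.9 to 190.5 on the 12 arrays of 2008 and 4.24 to 8.42 on the 12 arrays of 2007. The background of an array was set as the 95th percentile of the sizes of its values below 0, which lay at 6.19 to 7.39 on the log2 scale in 2008 and at 6.78 to 8.08 in 2007. A gene counted as above background in a group when it passed this level on at least 3 of its 4 arrays. The mutated genes were low in their mutants: xpa-1 was at 5.00 to 6.59 on the 8 xpa-1 arrays, against 8.92 to 10.07 on the 8 N2 arrays, and glp-1 was at 5.00 to 7.39 on the 8 glp-1 arrays, against 10.40 to 11.13 on the N2 arrays. In glp-1 animals xpa-1 was low too, with means of 6.71 after UV and 6.84 in controls. An effect of the glp-1 mutation on its own transcript cannot be told apart from the loss of the germ line.

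Most of the family was dim in these animals. Of the 24 genes, 6 were above background in at least 1 group: daf-28, ins-1, ins-2, ins-6, ins-7 and ins-34. Among all probe sets, 51.9% were above background in at least 1 group. No gene of the family was above background in all 6 groups. By group, 3 of 24 were above background in irradiated glp-1 animals (ins-1, ins-6 and ins-7), 4 in glp-1 controls (daf-28, ins-1, ins-6 and ins-7), 0 in irradiated xpa-1 animals, 3 in xpa-1 controls (ins-1, ins-7 and ins-34), 2 in irradiated N2 animals (ins-2 and ins-7) and 2 in N2 controls (ins-1 and ins-7). In the same order of groups, the shares of all probe sets above background were 33.5%, 35.8%, 41.2%, 38.8%, 46.0% and 41.3%.

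Counted by array, ins-7 was the gene most often detected, on 21 of 24 arrays, followed by ins-1 on 18. The gene ins-17 was above background on 12 arrays, and these were the 12 arrays of 2008. The agonist ins-6 passed on 11 arrays, and daf-28, ins-2 and ins-34 on 9 each. A further 6 genes passed on a few arrays only: ins-24 on 4, ins-35 on 3, ins-5, ins-22 and ins-31 on 2 each, and ins-18 on 1. The remaining 11 genes (ins-3, ins-4, ins-11, ins-21, ins-23, ins-26, ins-30, ins-32, ins-33, ins-37 and ins-39) passed on 0 of 24 arrays. On both arrays of a year, 9 genes were above background in at least 1 group in 2008 (daf-28, ins-1, ins-2, ins-6, ins-7, ins-17, ins-24, ins-34 and ins-35) and 4 in 2007 (daf-28, ins-1, ins-6 and ins-7). On single arrays, 40.2% to 55.9% of all probe sets passed in 2008 and 32.4% to 47.5% in 2007. The plot of arrays above background shows that ins-22, ins-24 and ins-35 passed on glp-1 arrays and on none of xpa-1 or N2, and that ins-34 was detected on no array of glp-1.

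**Figure D1:**
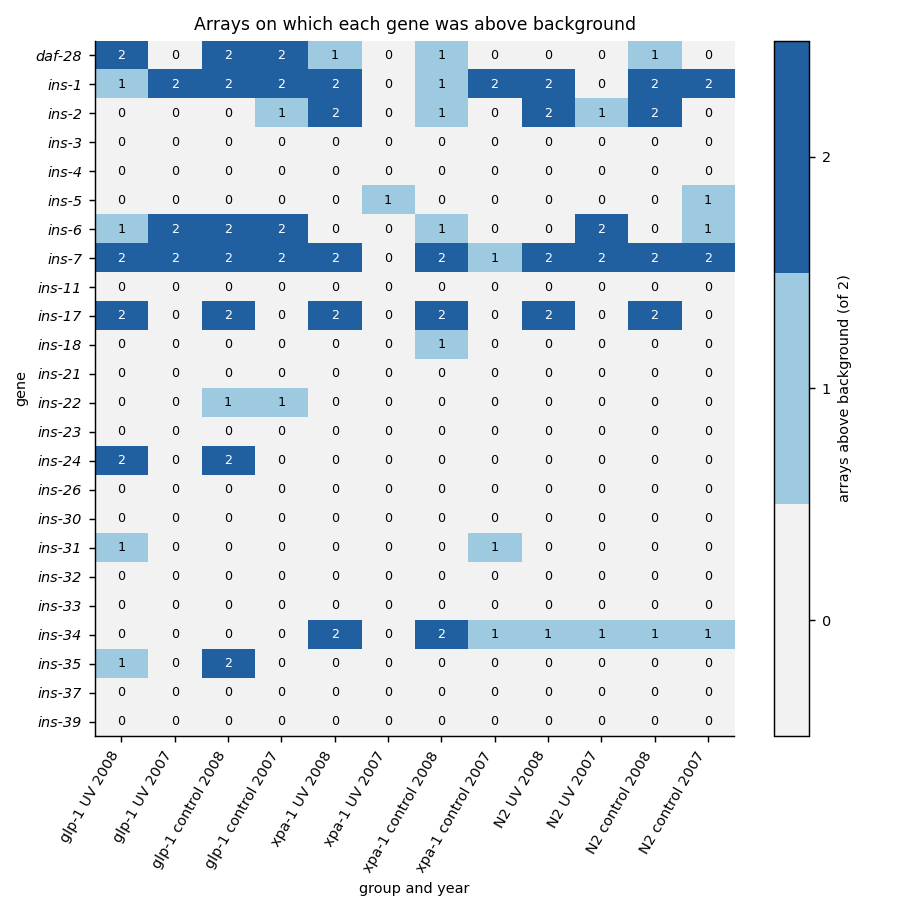
Number of arrays, of 2, on which each of the 24 insulin-like peptide genes was above background, by group and year. The row of ins-7 is filled in nearly every column, ins-17 is filled in all 6 groups in 2008 and in none in 2007, and 11 genes are at 0 throughout.

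The comparison of glp-1 with N2 asks how the peptides differ between animals that lack most of the germ line and wild-type animals. In control animals 7 of the 24 genes passed the test (limma, adjusted p under 0.05 over all 22548 probe sets). Higher in glp-1 were ins-7, ins-6, ins-35, daf-28, ins-22 and ins-24, and lower was ins-34. Among all probe sets, 19.7% were called higher and 18% lower (37.7% in all), so the 25% of family genes that were higher was near this background and the 4.17% that were lower was below it. The median difference was 0.32 over the family and 0.065 over all probe sets. In irradiated animals 9 of 24 passed: ins-7, ins-1, ins-22, ins-6, daf-28, ins-17, ins-26 and ins-4 were higher in glp-1, and ins-34 was lower. Among all probe sets, 20.3% were called higher and 19.5% lower (39.9% in all) in that comparison, against 33.3% and 4.17% of the family, and the medians were 0.62 over the family and 0.12 over all probe sets. The control and irradiated comparisons share no arrays, but all 24 arrays were normalized together and entered the same fit, with a shared spread and year term. The 5 genes called in both (daf-28, ins-6, ins-7, ins-22 and ins-34) were 71.4% of the calls in controls and 55.6% of those in irradiated animals, and each had the same direction in both. The share of all probe sets called in both is not given here, so this overlap cannot be read as particular to the family. With the values as deposited, before normalization between arrays, ins-7, ins-22 and ins-34 were called in controls and ins-7 alone in irradiated animals. Deposited medians on the 2007 arrays were 4.24 to 8.42, so the added constant of 32 compresses differences on those arrays. Calls lost with values as deposited, here and below, therefore cannot be read as an effect of normalization alone. No gene's glp-1 difference itself changed with irradiation at this limit (smallest adjusted p = 0.9955). In whole animals more cells of a type and more RNA per cell cannot be told apart.

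**Figure D2:**
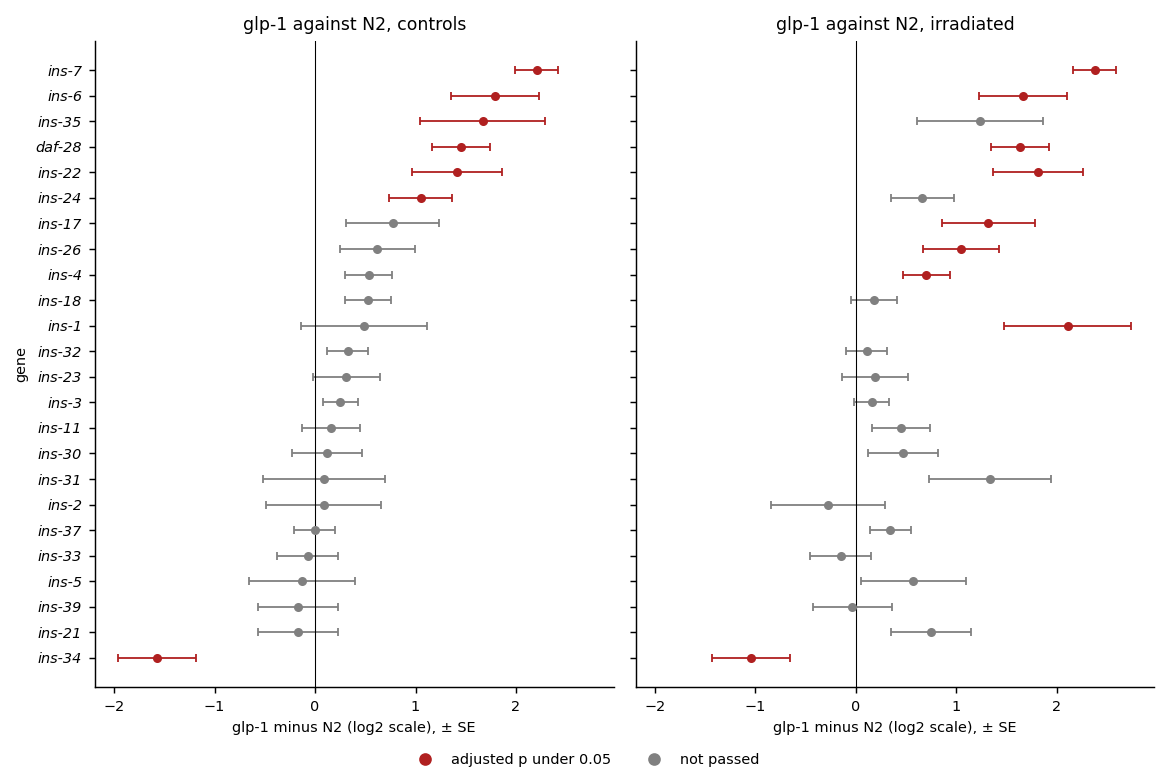
Difference between glp-1 and N2 for each of the 24 genes, on the log2 scale with its standard error, in control animals (left) and irradiated animals (right). Red points passed an adjusted p of 0.05; ins-7 lies furthest right and ins-34 furthest left in both panels.

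Among the agonists, ins-7, a peptide of the intestine and neurons whose reduction lengthens life, differed most. Array values are given with the 2 arrays of 2008 before the 2 of 2007. In controls ins-7 was at 10.23, 10.19, 10.26 and 9.57 in glp-1, against 8.17, 7.76, 7.93 and 7.58 in N2, a difference of 2.21 (SE 0.21, adjusted p = 7.08e-08). The groups did not overlap, and since both were above background the difference is a fold of 5.20 in normalized intensity. In irradiated animals ins-7 was at 10.11, 10.14, 10.37 and 10.06 in glp-1, against 7.82, 7.94, 7.47 and 7.95 in N2, a difference of 2.38 (SE 0.21, adjusted p = 2.47e-08) and a fold of 5.91. Here too every glp-1 array lay above every N2 array. By year, the difference in controls was 2.25 in 2008 and 2.17 in 2007, and in irradiated animals 2.24 and 2.51.

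The gene daf-28, which encodes a neuronal and intestinal agonist that keeps larvae out of the dauer stage, showed the same separation. In controls daf-28 was at 8.10, 7.63, 7.88 and 7.79 in glp-1, against 6.02, 6.40, 6.35 and 6.81 in N2. The means were 7.85 ± 0.20 in glp-1 and 6.40 ± 0.32 in N2 (SD, n = 4 each), which differed by 1.45 (SE 0.29, adjusted p = 3.65e-04). All 4 glp-1 arrays passed background and 1 N2 array did. In irradiated animals daf-28 was at 7.63, 7.37, 7.83 and 7.87 in glp-1, against 6.14, 6.10, 5.62 and 6.32 in N2, a difference of 1.63 (adjusted p = 1.10e-04). Of the irradiated arrays, 2 of 4 passed background in glp-1 and 0 in N2, so no fold is given. The calls of daf-28 were lost with the values as deposited, where the differences were 0.56 in controls (adjusted p = 0.0509) and 0.53 in irradiated animals (adjusted p = 0.0600). Its highest deposited value in 2007 was 13.9, below the added constant of 32, so its differences in that year were compressed.

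The agonist ins-6 is made in sensory neurons and promotes exit from the dauer stage. In controls ins-6 was at 8.12, 7.73, 8.31 and 9.03 in glp-1, against 6.07, 5.98, 5.71 and 8.27 in N2, a difference of 1.79 (SE 0.44, adjusted p = 0.0026). The groups overlapped through 1 N2 array of 2007, at 8.27, while in 2008 both glp-1 arrays lay above both N2 arrays. In irradiated animals ins-6 was at 6.91, 7.11, 9.43 and 9.67 in glp-1, against 5.74, 5.55, 7.50 and 7.67 in N2, a difference of 1.66 (SE 0.44, adjusted p = 0.0045). In both strains the irradiated arrays of 2007 lay above those of 2008, and within each year glp-1 lay above N2. With the 2007 arrays alone the gene was not called (adjusted p = 0.1574 in controls and 0.0963 in irradiated animals), nor with the values as deposited (adjusted p = 0.0753 and 0.1196).

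The agonist ins-35 was called in controls, where it was at 7.55, 8.43, 5.13 and 5.88 in glp-1, against 5.06, 5.00, 5.27 and 5.00 in N2 (difference 1.67, SE 0.63, adjusted p = 0.0421). The 2 glp-1 arrays of 2008 were above background and the other 6 arrays of these groups were not. Its difference was 2.96 in 2008 and 0.37 in 2007. In irradiated animals ins-35 was at 6.16, 8.69, 5.00 and 6.85 in glp-1, against 5.13, 5.11, 6.53 and 5.00 in N2 (difference 1.23, adjusted p = 0.1303), with 1 array above background. The call in controls was lost without glp-1 control array 2008-1 (1.46, adjusted p = 0.1131) or 2008-2 (1.15, adjusted p = 0.1769), or without N2 control array 2007-2 (1.74, adjusted p = 0.0664), 2008-1 (1.55, adjusted p = 0.0909) or 2008-2 (1.51, adjusted p = 0.0968). It was lost as well with values as deposited (1.48, adjusted p = 0.0770) and with a constant of 100 (0.92, adjusted p = 0.0593). Other settings that ended it were no year term (adjusted p = 0.0570) and the compared groups alone (adjusted p = 0.0660). With the 2007 arrays alone its adjusted p was 0.8099.

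A smaller difference was called for the agonist ins-4 in irradiated animals, at levels that never passed background. It was at 6.12, 6.13, 6.48 and 7.0 in glp-1, against 5.79, 5.82, 5.35 and 5.98 in N2 (difference 0.70, SE 0.23, adjusted p = 0.0213), and the groups did not overlap. In controls it was at 6.84, 6.13, 7.03 and 6.73 in glp-1, against 6.42, 6.11, 5.90 and 6.18 in N2 (difference 0.53, adjusted p = 0.0823). The call in irradiated animals was lost without glp-1 UV array 2007-2 (0.52, adjusted p = 0.0910) or N2 UV array 2007-1 (0.56, adjusted p = 0.0880). It was also lost with values as deposited, where the difference was 0.012 (adjusted p = 0.9957), with median centring (0.41, adjusted p = 0.2147), with quantile normalization within each year (0.31, adjusted p = 0.3350), with array weights (0.39, adjusted p = 0.1051), and with the arrays of 2008 (0.32, adjusted p = 0.3898) or 2007 alone (1.08, adjusted p = 0.0588). The other measured agonists, ins-3, ins-32 and ins-33, passed background on 0 arrays and were not called. Over the 8 measured agonists, 4 were higher and 0 lower in each comparison. Among all probe sets, 19.7% were called higher and 18% lower in controls, and 20.3% and 19.5% in irradiated animals. The median agonist difference was 0.99 in controls and 0.97 in irradiated animals.

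**Figure D3:**
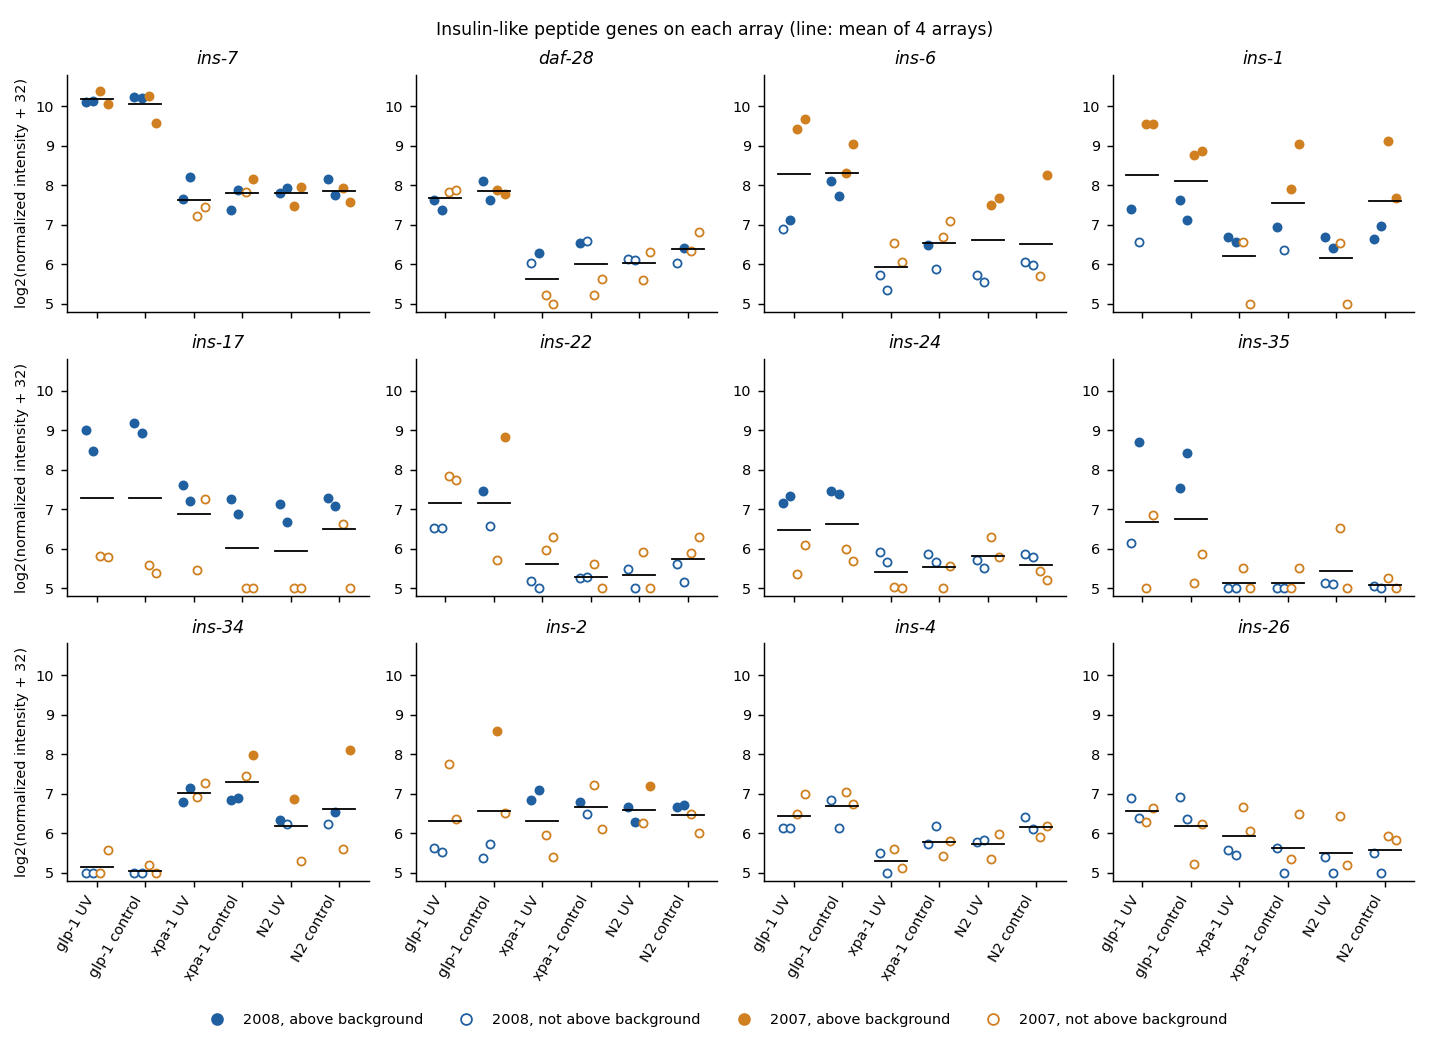
Level of 12 insulin-like peptide genes on each array, as log2(normalized intensity + 32), by group, with 2008 in blue and 2007 in orange. Filled points were above the background of their array and lines are means of 4 arrays; ins-7 and daf-28 are higher on all 8 glp-1 arrays than on any N2 array, and ins-34 is at or near the lowest possible value on the glp-1 arrays.

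Antagonists gave 0 calls of 5 measured genes in controls, beside 37.7% of all probe sets called in either direction. In irradiated animals 2 antagonists were called, both higher in glp-1, beside 20.3% of all probe sets called higher. The gene ins-1, the worm peptide most like human insulin, was at 7.40, 6.58, 9.55 and 9.54 in irradiated glp-1 animals, against 6.69, 6.41, 6.54 and 5.00 in irradiated N2 animals. The difference of 2.11 (SE 0.63, adjusted p = 0.0107) was 0.44 within 2008 (adjusted p = 0.3174 with these arrays alone), where the groups overlapped, and 3.77 within 2007. The call was also lost without N2 UV array 2007-2, which was at 5.00 (difference 1.54, adjusted p = 0.0581), with values as deposited (0.25, adjusted p = 0.5786) and with array weights (0.86, adjusted p = 0.1199). In controls ins-1 was at 7.63, 7.13, 8.76 and 8.87 in glp-1, against 6.65, 6.97, 9.13 and 7.68 in N2, and the difference of 0.49 (95% confidence interval -0.83 to 1.80, adjusted p = 0.6161) did not pass.

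The antagonist ins-17 was measured above background in 2008 alone. It was at 9.02, 8.47, 5.83 and 5.79 in irradiated glp-1 animals, against 7.14, 6.68, 5.00 and 5.00 in irradiated N2 animals, a difference of 1.32 (SE 0.46, adjusted p = 0.0275). In controls it was at 9.19, 8.92, 5.59 and 5.40 in glp-1, against 7.30, 7.09, 6.62 and 5.00 in N2, a difference of 0.77 that was not called (adjusted p = 0.2139). The 2008 arrays separated the strains in both comparisons, with differences of 1.86 in controls and 1.83 in irradiated animals. The call over all arrays was lost without glp-1 UV array 2008-1 (1.08, adjusted p = 0.0956) or 2008-2 (1.27, adjusted p = 0.0585), or without N2 UV array 2008-2 (1.17, adjusted p = 0.0777). It was also lost with values as deposited (0.61, adjusted p = 0.1291) and without the year term (adjusted p = 0.3391).

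For ins-18, a DAF-2 antagonist, the control values were 7.39, 6.91, 5.93 and 5.33 in glp-1, against 6.42, 6.24, 5.76 and 5.00 in N2 (difference 0.53, 95% confidence interval 0.05 to 1.01, adjusted p = 0.0755). The irradiated values were 6.82, 6.34, 5.45 and 5.00 in glp-1, against 6.16, 5.89, 5.84 and 5.00 in N2 (difference 0.18, adjusted p = 0.5824). All of these were below background, and neither difference passed. The antagonists ins-37 and ins-39 were above background on 0 arrays and were not called. The median difference over the 5 antagonists was 0.49 in controls and 0.34 in irradiated animals.

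Of the 11 genes with no role given here, 2 were higher and 1 lower in glp-1 in each comparison. Among all probe sets, 19.7% were called higher and 18% lower in controls, and 20.3% and 19.5% in irradiated animals. The gene lower in both, ins-34, was at 5.00, 5.00, 5.20 and 5.00 in glp-1 controls, against 6.23, 6.54, 5.61 and 8.10 in N2 controls, a difference of -1.57 (SE 0.39, adjusted p = 0.0027). In irradiated animals it was at 5.00, 5.00, 5.00 and 5.57 in glp-1, against 6.32, 6.24, 6.87 and 5.31 in N2 (difference -1.04, SE 0.39, adjusted p = 0.0373). The glp-1 arrays lay at or near the bottom of the scale and none passed background, while 2 of 4 N2 arrays passed in each comparison. Every control array of N2 lay above every control array of glp-1. The difference was -1.39 in 2008 and -1.75 in 2007 in controls, and -1.28 and -0.80 in irradiated animals. The call in controls was lost with the 2007 arrays alone (adjusted p = 0.1856) and with the compared groups alone (adjusted p = 0.0562). The call in irradiated animals was lost without any of 6 arrays: glp-1 UV 2007-1 (-0.97, adjusted p = 0.0869), 2008-1 (-1.03, adjusted p = 0.0666) and 2008-2 (-1.03, adjusted p = 0.0665), and N2 UV 2007-1 (-0.87, adjusted p = 0.1200), 2008-1 (-0.89, adjusted p = 0.1010) and 2008-2 (-0.95, adjusted p = 0.0886). It was lost as well with a constant of 100 in place of 32 (-0.47, adjusted p = 0.1235) and with values as deposited (-1.16, adjusted p = 0.0551).

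The gene ins-22 was at 7.47, 6.58, 5.72 and 8.82 in glp-1 controls, against 5.61, 5.16, 5.89 and 6.31 in N2 controls (difference 1.41, SE 0.45, adjusted p = 0.0165). It passed background on 2 glp-1 arrays and on 0 N2 arrays, and no fold is given. In irradiated animals it was at 6.54, 6.53, 7.84 and 7.75 in glp-1, against 5.48, 5.00, 5.92 and 5.00 in N2 (difference 1.81, SE 0.45, adjusted p = 0.0026), with no array above background and no overlap. The call in controls was lost without glp-1 control array 2007-2 (0.94, adjusted p = 0.0843) or 2008-1 (1.19, adjusted p = 0.0625), and with the 2007 arrays alone (1.18, adjusted p = 0.4328). The call in irradiated animals was lost with values as deposited (0.74, adjusted p = 0.0732) and with the 2007 arrays alone (2.33, adjusted p = 0.0993). Its neighbours ins-21 and ins-23 were not called in either comparison.

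A second cluster gave calls for ins-24 and ins-26, which flank ins-30. In controls ins-24 was at 7.46, 7.38, 6.0 and 5.70 in glp-1, against 5.87, 5.79, 5.45 and 5.22 in N2 (difference 1.05, SE 0.31, adjusted p = 0.0108). Both glp-1 arrays of 2008 passed background and no other array did. The call in controls was lost with values as deposited (0.60, adjusted p = 0.1023) and with the 2007 arrays alone (0.51, adjusted p = 0.3720). It was lost as well without the year term (adjusted p = 0.0677). In irradiated animals ins-24 was at 7.16, 7.33, 5.37 and 6.09 in glp-1, against 5.71, 5.50, 6.30 and 5.79 in N2 (difference 0.66, adjusted p = 0.1036). A second probe set for ins-24, dimmer and on 0 arrays above background, differed by 0.33 in controls (adjusted p = 0.2179) and 0.040 in irradiated animals (adjusted p = 0.9091), so the probe sets disagreed on the call; the brighter one bears the suffix that marks probes shared between transcripts.

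The gene ins-26 was at 6.89, 6.38, 6.28 and 6.65 in irradiated glp-1 animals, against 5.39, 5.00, 6.44 and 5.19 in irradiated N2 animals (difference 1.05, SE 0.38, adjusted p = 0.0317). In controls it was at 6.93, 6.35, 5.23 and 6.24 in glp-1, against 5.49, 5.00, 5.93 and 5.84 in N2 (difference 0.62, adjusted p = 0.2212). No array passed background for this gene. The call was lost without glp-1 UV array 2007-2 (adjusted p = 0.0523), 2008-1 (adjusted p = 0.1004) or 2008-2 (adjusted p = 0.0537), or without N2 UV array 2007-2 (adjusted p = 0.1013), 2008-1 (adjusted p = 0.0571) or 2008-2 (adjusted p = 0.0936). The gene ins-11, an intestinal peptide, passed background on no array: its control values were 5.00, 6.22, 5.22 and 5.00 in glp-1, against 5.00, 5.00, 5.02 and 5.79 in N2, and its irradiated values were 5.00, 6.31, 5.64 and 5.00 in glp-1, against 5.00, 5.00, 5.00 and 5.17 in N2. Neither ins-11 difference passed (0.16, adjusted p = 0.7431, and 0.45, adjusted p = 0.2455).

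The years differed in how many genes separated glp-1 from N2. With the 2008 arrays alone, 16 of 24 genes were called in controls, 14 higher in glp-1 and 2 lower, beside 26% of all probe sets called higher and 22.4% lower. With the 2007 arrays alone, 2 were called, daf-28 and ins-7, beside 19.1% of all probe sets in either direction. In irradiated animals the counts were 11 in 2008, 9 higher and 2 lower, beside 26.1% and 23.8% of all probe sets, and 3 in 2007 (daf-28, ins-1 and ins-7), beside 20.1%. The median standard error over the family was 0.24 in 2008 and 0.54 in 2007. The genes lower in glp-1 in 2008 were ins-34 and ins-2 in both comparisons.

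In 2008 ins-2 was above background on all 4 N2 arrays and on no glp-1 array. It was at 5.36 and 5.74 in glp-1 controls, against 6.66 and 6.72 in N2 controls (difference -1.14, SE 0.19, adjusted p = 0.0019 within 2008), and at 5.62 and 5.53 in irradiated glp-1 animals, against 6.67 and 6.28 in irradiated N2 animals (difference -0.90, adjusted p = 0.0056). In 2007 its difference in controls had the other sign, at 1.31. Over all arrays ins-2 differed by 0.09 in controls (adjusted p = 0.9475) and -0.28 in irradiated animals (adjusted p = 0.7485).

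The difference between glp-1 and N2, averaged over treatments, was itself compared between 2008 and 2007. For 1 of 24 genes, ins-24, it was larger in 2008, by 1.51 (SE 0.26, adjusted p = 0.0038), beside 6.19% of all probe sets called in either direction. Next came ins-35 (2.37, adjusted p = 0.0672), ins-17 (1.60, adjusted p = 0.0798) and ins-2 (-1.84, adjusted p = 0.0821), which did not pass. For ins-7 and daf-28 the year difference was -0.090 (adjusted p = 0.9079) and -0.052 (adjusted p = 0.9467). Cell type markers also moved in this comparison, which keeps the sign of glp-1 minus N2. The signed difference was higher in 2008 for 2 of 8 sperm markers (list median 2.09). It was also higher for 2 of 10 intestine markers and 1 of 8 oocyte markers. It was lower in 2008 for 1 of 8 germ line and 1 of 8 hypodermis markers. Oocyte and germ line markers were lower in glp-1 over both years, so for them a higher value is a smaller gap between strains. The part of these markers in the ins-24 value was not tested. With arrays scaled to the same 75th percentile the ins-24 value was 1.19 (adjusted p = 0.1265). The count of 1 became 3 without glp-1 UV array 2007-2 or N2 control array 2007-2, and 2 without glp-1 UV array 2008-1, glp-1 control array 2007-2 or N2 UV array 2007-2.

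**Figure D4:**
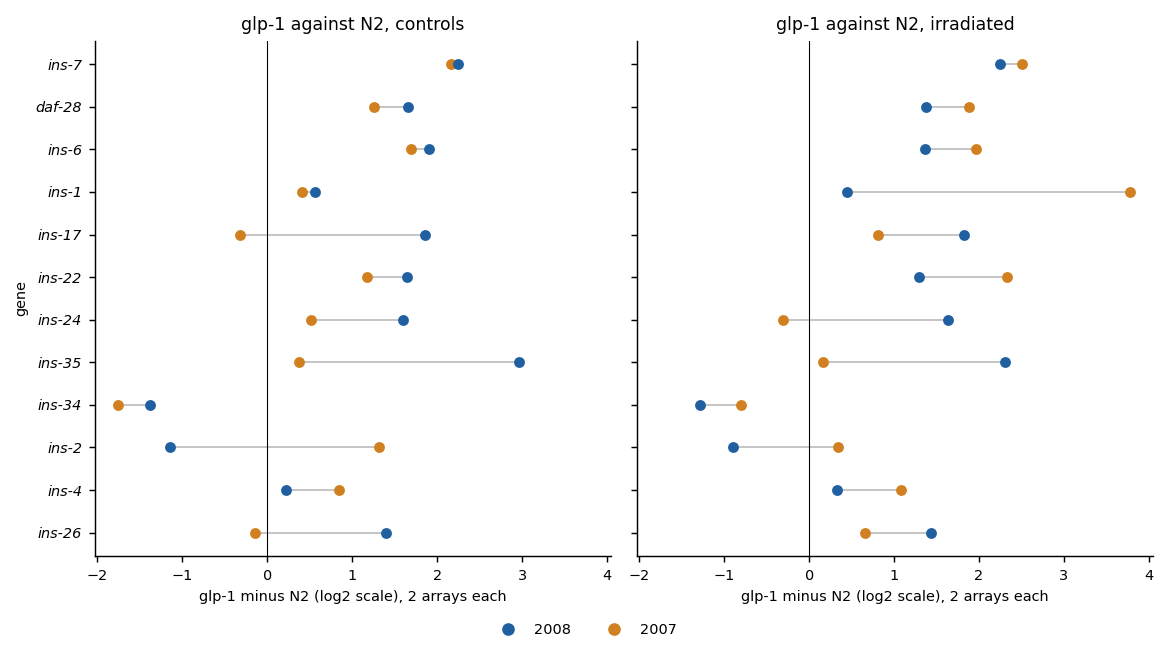
Difference between glp-1 and N2 for 12 genes within 2008 (blue) and within 2007 (orange), on the log2 scale, in control animals (left) and irradiated animals (right), each from 2 arrays per strain. The points of ins-7 nearly coincide, while those of ins-35, ins-24 and ins-17 lie further right in 2008.

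The UV comparisons ask whether the peptides changed 3 h after irradiation. No gene of the family was called in glp-1, xpa-1 or N2, beside 0%, 0.0310% and 0% of all probe sets, nor for the mean of the strains (0.0310%). At an unadjusted p under 0.05 there were 2 genes in glp-1, 1 in xpa-1, 1 in N2 and 3 for the mean of the strains, of 24 in each, beside 7.26%, 5.80%, 2.71% and 6.28% of all probe sets. Median differences over the family were -0.011 in glp-1, -0.10 in xpa-1 and -0.15 in N2.

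The agonist ins-7 differed by 0.11 after UV in glp-1 (95% confidence interval -0.34 to 0.55), by -0.18 in xpa-1 (-0.62 to 0.27) and by -0.06 in N2 (-0.51 to 0.38). For daf-28 the differences were -0.18 in glp-1 (-0.78 to 0.42), -0.37 in xpa-1 (-0.97 to 0.23) and -0.35 in N2 (-0.95 to 0.25). The intervals for these genes included 0 in every strain. The antagonist ins-1 had the smallest p in xpa-1 and N2. It was at 6.68, 6.56, 6.58 and 5.00 in irradiated xpa-1 animals, against 6.94, 6.38, 7.90 and 9.04 in xpa-1 controls (difference -1.36, unadjusted 95% confidence interval -2.67 to -0.04, adjusted p = 0.8447), and in N2 it differed by -1.45 (-2.76 to -0.13, adjusted p = 1.0). Most of each difference lay in the arrays of 2007: it was -0.036 in 2008 and -2.68 in 2007 in xpa-1, and -0.26 and -2.64 in N2. In glp-1 ins-1 differed by 0.17 (-1.15 to 1.48).

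None of the other genes with the smallest p passed. In glp-1 they were ins-37 (0.43, adjusted p = 0.6766), ins-18 (-0.48, adjusted p = 0.6784) and ins-21 (0.64, adjusted p = 0.7859). In xpa-1 they were ins-4 (-0.48, adjusted p = 0.8635) and ins-31 (-1.20, adjusted p = 0.8826), and in N2 ins-4 (-0.42) and ins-39 (-0.53), with adjusted p = 1.0. For the mean of the strains they were ins-4 (-0.38, adjusted p = 0.6382), ins-37 (0.30, adjusted p = 0.6715) and ins-1 (-0.88, adjusted p = 0.7050). The agonist ins-4 was below its control mean in each strain, with a difference of -0.25 in glp-1.

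**Figure D5:**
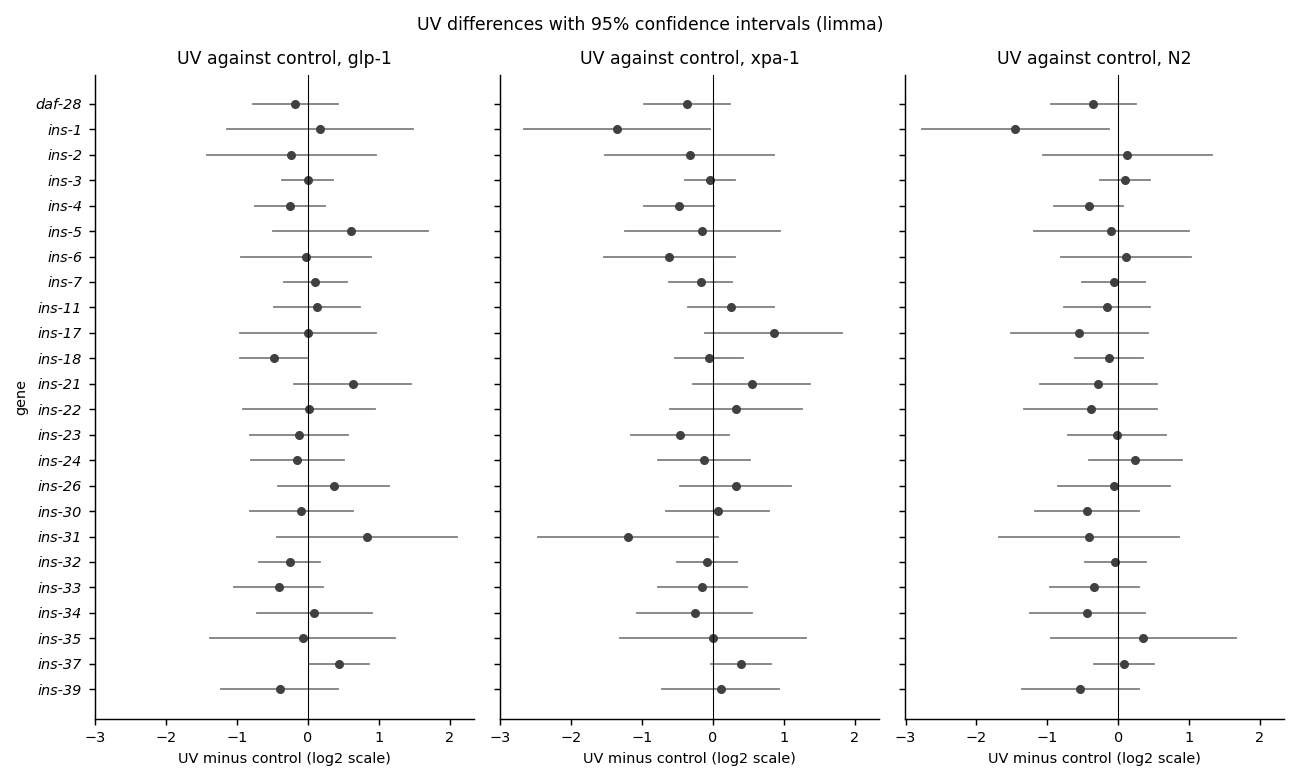
Difference between irradiated and control animals for each of the 24 genes, on the log2 scale with its 95% confidence interval, in glp-1 (left), xpa-1 (middle) and N2 (right). No gene passed an adjusted p of 0.05 in any panel, and the intervals of ins-1 are wide in all of them.

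The UV effect in a mutant was also set against that in N2. No gene of the family was called for glp-1 or for xpa-1, beside 0% of all probe sets in each, and at an unadjusted p under 0.05 there were 0 and 1 of 24, beside 4.14% and 2.00% of all probe sets. The smallest p for glp-1 belonged to ins-1 (1.62, SE 0.89), ins-21 (0.92, SE 0.56) and ins-31 (1.24, SE 0.86), each with adjusted p = 0.9955. For xpa-1 it belonged to ins-17 (1.40, SE 0.65), ins-21 (0.83, SE 0.56) and ins-6 (-0.72, SE 0.62), each with adjusted p = 1.0.

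Between xpa-1 and N2 no gene of the family was called, in control animals (0.00887% of all probe sets called) or in irradiated ones (0.0133%), and 1 gene of 24 in each had an unadjusted p under 0.05, beside 3.73% of all probe sets in controls and 3.03% in irradiated animals. The smallest p in controls belonged to ins-23 (0.70), ins-34 (0.66) and ins-30 (-0.56), and in irradiated animals to ins-34 (0.84), ins-17 (0.93) and ins-4 (-0.43), all with adjusted p = 1.0. The gene ins-34 was at 6.79, 7.14, 6.91 and 7.27 in irradiated xpa-1 animals and at 6.83, 6.89, 7.44 and 7.98 in xpa-1 controls. These values lay above all 8 glp-1 arrays and overlapped those of N2.

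The agonist ins-7 was at 7.66, 8.22, 7.22 and 7.45 in irradiated xpa-1 animals and at 7.36, 7.89, 7.84 and 8.16 in xpa-1 controls. It differed from N2 by -0.16 in irradiated animals (95% confidence interval -0.60 to 0.29) and by -0.043 in controls (-0.49 to 0.40), and its xpa-1 values overlapped those of N2. The levels of daf-28 were 6.03, 6.28, 5.24 and 5.00 in irradiated xpa-1 animals and 6.55, 6.59, 5.24 and 5.64 in xpa-1 controls, and its differences from N2 were -0.41 (-1.01 to 0.19) in irradiated animals and -0.39 (-0.99 to 0.21) in controls. By year the daf-28 differences in controls were 0.36 in 2008 and -1.14 in 2007. For ins-6 the levels were 5.74, 5.36, 6.54 and 6.07 in irradiated xpa-1 animals and 6.50, 5.88, 6.68 and 7.10 in xpa-1 controls, with differences from N2 of -0.69 and 0.037. None of these agonists passed.

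The antagonist ins-18 was at 6.19, 6.0, 5.00 and 5.00 in irradiated xpa-1 animals and at 6.24, 6.18, 5.00 and 5.02 in xpa-1 controls. The intestinal peptide ins-11 was at 5.00, 5.78, 5.10 and 5.14 in irradiated xpa-1 animals and at 5.00 on all 4 control arrays. The level of ins-17 was 7.61, 7.20, 5.48 and 7.26 in irradiated xpa-1 animals and 7.26, 6.87, 5.00 and 5.00 in xpa-1 controls, with the high values in 2008 as in the other strains, save 1 irradiated array of 2007 at 7.26. Genes called between glp-1 and N2 that were dim in N2 were dim in xpa-1 too: over the 8 xpa-1 arrays ins-22 spanned 5.00 to 6.29, ins-24 5.00 to 5.91, ins-35 5.00 to 5.53, ins-4 5.00 to 6.17 and ins-26 5.00 to 6.66.

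Genes of the pathway around the peptides were compared between glp-1 and N2 controls. Of 16 genes of the receptor and kinase cascade, 4 were higher in glp-1, 6 were lower and 6 were not called, with a median of -0.27, beside 19.7% of all probe sets called higher and 18% lower. Higher were the kinases akt-2 (1.74) and sgk-1 (1.47), pqm-1, a transcription factor (1.52), and ist-1, an adaptor of the receptor (1.30). The lower genes included age-1, the PI3-kinase (-2.53), hsf-1, the heat-shock transcription factor (-2.35), aap-1, the adaptor of the PI3-kinase (-1.70), par-5, a 14-3-3 protein (-0.95), and the kinase akt-1 (-0.63), all with an adjusted p of 0.0354 or less. Among the glp-1 control arrays, age-1 passed background on 2 of 4 and hsf-1 on 1 of 4, against 4 of 4 in N2 for each. The gene ist-1 passed on 3 glp-1 and 2 N2 control arrays. The receptor gene daf-2 was above background on no array of either group, at 5.09 ± 0.18 in glp-1 and 5.28 ± 0.19 in N2 (SD, n = 4 each). The gene daf-16 was at 10.89 ± 0.33 in glp-1 and 10.37 ± 0.70 in N2 and did not pass (adjusted p = 0.1224). In irradiated animals 4 genes of the cascade were higher in glp-1, 5 lower and 7 not called, with age-1 at -2.21, beside 20.3% of all probe sets called higher and 19.5% lower.

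Genes that cut and load peptides into dense-core vesicles gave 5 of 12 higher in glp-1 and 0 lower in both comparisons, against the same shares of all probe sets. In controls these were the proprotein convertases aex-5 (2.05) and egl-3 (0.95), the carboxypeptidase egl-21 (1.34), the convertase chaperone sbt-1 (1.34) and hid-1, a factor for dense-core vesicles (0.71), with an adjusted p of 0.0081 or less and a list median of 0.64. Of 9 measured daf-16 targets, 8 were higher in glp-1 controls than in N2 controls, with a median of 2.08, beside 19.7% of all probe sets, and 7 in irradiated animals, with a median of 2.12, beside 20.3%. In controls they were scl-20 (5.11), the metallothionein mtl-1 (3.86), the lysozyme lys-7 (3.03), dod-3 (3.02), the superoxide dismutase sod-3 (2.08), the catalase ctl-2 (2.01), the glycolytic enzyme gpd-2 (0.56) and scl-1 (0.53), with an adjusted p of 0.0293 or less. Of these, scl-1 was above background on no array of either group and was not called in irradiated animals (limma, adjusted p = 0.0662). In N2 controls scl-20 passed background on 0 of 4 arrays, sod-3 on 1 and mtl-1 on 2, against 4 of 4 in glp-1 controls for each. The list was chosen with earlier results of these data known. No gene of these pathway lists was called in a UV comparison or between xpa-1 and N2.

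Markers of cell types were compared between glp-1 and N2 as well. Among all probe sets, 19.7% were called higher and 18% lower in controls, and 20.3% and 19.5% in irradiated animals. Of 10 intestine markers, 6 were higher in glp-1 controls and 0 lower, and their summed intensity was 25484 to 33685 in glp-1 and 13089 to 19761 in N2. Of 10 neuron markers, 3 were higher and 0 lower, with sums of 8666 to 10440 in glp-1 and 4965 to 7463 in N2. The 3 were rab-3, unc-64 and egl-21, the last already named among the genes that cut and load peptides. All 8 germ line markers were lower, with sums of 231.3 to 971.1 in glp-1 and 18130 to 21545 in N2, and pgl-1, him-3, htp-3, gld-1, fog-2 and deps-1 passed background on no glp-1 control array. The medians were 1.09 for the intestine markers, 0.66 for the neuron markers and -5.08 for the germ line markers. In irradiated animals 7 intestine and 5 neuron markers were higher in glp-1, and the 8 germ line markers were lower. Of 8 somatic gonad markers 6 were higher in controls and 4 in irradiated animals, and of 8 hypodermis and 8 muscle markers 2 each were higher in both comparisons, with 0 lower in these lists. All 8 oocyte markers were lower in both comparisons, and of 7 early embryo markers 2 were lower in controls and 1 in irradiated animals. No sperm marker of 8 was called in either of these comparisons over both years. The part of these shifts in the differences of the insulin-like peptide genes was not tested.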

How the data were processed

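The authors deposited 1 table of processed intensities, 22548 probe sets on 24 single-channel arrays (0 columns of no sample), on a linear scale that reaches below 0; their summary, background and scaling methods are not given in the sources used. Values were quantile normalized over all arrays, set to 0 where below 0 and taken as log2(value + 32). limma 3.58.1 (R 4.3.3) fitted the means of the 6 groups and a year term, with 17 residual and 2.24 prior degrees of freedom; the year comparison used a mean per strain, treatment and year. Two-sided p-values were adjusted over all 22548 probe sets (Benjamini-Hochberg), with a limit of 0.05. Probe sets were named from the platform table: 20766 carried 1 gene, 887 several and 895 none.

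The members, their roles and the pathway and marker lists were chosen with earlier results of these data known. Every called member is named, otherwise the 3 with the smallest p, and ins-7, daf-28, ins-1, ins-18, ins-6 and ins-11 are always described. A fold is given only where both groups were above background. The number of arrays limits the precision. The values of 1 gene of the kinase cascade are not reported here. The fit was tested on simulated data before use.

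Equal replicate numbers were checked by correlating, across probe sets, how replicates 1 and 2 of a year differed in the groups compared. For UV in glp-1 this was 0.39 in 2008 and 0.11 in 2007, and for xpa-1 against N2 after irradiation 0.30 and 0.18, both years over 0.1; in the other comparisons at least 1 year was under 0.1. All values printed come from the fit without a replicate block, and the block was an alternative. The labels do not tie equal numbers to a shared culture. Alternatives were other scalings, constants, filters, year terms, variance models and thresholds, a replicate block, each year alone and each array left out.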

Additional observations from a re-analysis of the deposited data

Results flagged for a closer look

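In 11 of 78 groups of 4 arrays, looked at over 13 genes, 1 array stood apart from the other 3 by Dixon's criterion, which chance meets in about 1 group in 20 where values are not held at a lowest level. In 5 of the 11 the other 3 arrays were all at the lowest possible value, 5.00, so that any value above it met the criterion. All 11 of these arrays were from 2007. The antagonist ins-1 was at 5.00 on irradiated N2 array 2007-2, the lowest value possible. On irradiated xpa-1 array 2007-2 it was at 5.002, just above that value. The agonist ins-6 was at 8.27 on N2 control array 2007-2, above the other 3. The agonist ins-7 was at 9.57 on glp-1 control array 2007-2, below the other 3 and above every N2 array. The intestinal peptide ins-11 stood at 5.17 on irradiated N2 array 2007-2 and at 5.79 on N2 control array 2007-2. The gene ins-34 was at 5.57 on irradiated glp-1 array 2007-2 and at 5.20 on glp-1 control array 2007-1, both below background. The agonist ins-35 was at 5.52 on irradiated xpa-1 array 2007-1, 5.53 on xpa-1 control array 2007-2 and 6.53 on irradiated N2 array 2007-1, also below background. The difference of ins-24 between glp-1 and N2 was larger in 2008 than in 2007 by 1.51 (limma, adjusted p = 0.0038).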

How the results depend on the processing

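Of 17 differences called for a gene of the family, recomputed under 406 alternatives, 327 stayed called, 79 did not and 0 reversed. The gene ins-7 was called under every alternative run in both comparisons of glp-1 with N2. The count of called genes in controls (7) was 3 with values as deposited, 11 with median centring, 4 with the dimmest 40% of probe sets left out, 16 with 2008 and 2 with 2007 alone, 14 with array weights, 4 with the compared groups alone and 4 at an adjusted p under 0.01. In irradiated animals (9) it was 1 with values as deposited, 3 with 2007 alone, 14 with array weights, 5 with the compared groups alone and 4 at 0.01. The UV count of 0 was 1 with 2008 alone in glp-1 (ins-33) and for the mean of strains (ins-33), and 1 with array weights for that mean (ins-4). The year comparison (1) gave 11 with values as deposited, 19 with median centring, 14 with quantile normalization within each year, 2 with a constant of 100 and 0 with the dimmest probe sets left out. Leaving out each array gave 5 to 9 calls in controls, 6 to 11 in irradiated animals and 1 to 3 in the year comparison, and 0 in the UV and xpa-1 comparisons. The replicate block gave 8 calls in controls, 9 in irradiated animals and 0 in the UV and xpa-1 comparisons, and ended no call. The 6 genes above background in a group were 1 with the 99th percentile of values below 0 and 10 with 2 of 4 arrays required. The UV difference of ins-21 in glp-1 (0.64) changed sign with values as deposited (-0.016), median centring (-0.051), 2008 alone (-0.16) and array weights (-0.00487), and that of ins-1 between glp-1 and N2 (1.62) with 2008 alone (-0.13). The causes of these changes were not tested. Each year alone holds fewer arrays, but the counts for glp-1 against N2 rose with 2008 alone and fell with 2007 alone. The median standard error over the family was 0.24 with 2008 alone, 0.54 with 2007 alone and 0.36 in the main fit. With the dimmest 40% left out, dim genes are removed from the test. With values as deposited, median centring and quantile normalization within each year, the constant of 32 compresses differences in 2007. The calls lost under these settings, and the year counts of 11, 19 and 14, therefore cannot be read as effects of normalization alone. The part of the compression in them was not tested. Background limits the rest: 11 of 24 genes never passed it, and a difference among them was not measurable as a fold.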

Other observations

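Some dim genes of the family separated glp-1 from N2 within the arrays of 2008, most of them in controls only. In controls these were ins-26 (1.39, adjusted p = 0.0097), ins-5 (1.06, adjusted p = 0.0056), ins-33 (0.83, adjusted p = 2.00e-04), ins-18 (0.81, adjusted p = 0.0155), ins-32 (0.77, adjusted p = 0.0336), ins-3 (0.53, adjusted p = 0.0135) and ins-23 (0.52, adjusted p = 0.0378), all higher in glp-1 and none above background on a 2008 array of these groups. They were not called over all arrays in controls. In irradiated animals of 2008, ins-26 (1.44, limma, adjusted p = 0.0080) and ins-5 (1.08, adjusted p = 0.0049) were called. Not called there were ins-18 (0.55, adjusted p = 0.0666), ins-3 (0.36, adjusted p = 0.0582) and ins-23 (0.32, adjusted p = 0.1669). Nor were ins-32 (0.029, adjusted p = 0.9936) and ins-33, with a difference of 0. For ins-33, an agonist, the 2008 values were 5.00 and 5.00 in irradiated glp-1 animals and 5.84 and 5.81 in glp-1 controls, and with these arrays alone it was called lower after UV (-0.83, adjusted p = 0.0184), as were 0.191% of all probe sets. Over both years its UV difference in glp-1 was -0.41 (adjusted p = 0.8391). The median of ins-33 over the 12 arrays of 2008 was 5.00, the lowest possible value, and 0 of them passed background. Its standard error within 2008 was 0.085, against a family median of 0.24. Values held at the lowest level hide their spread. The 2008 p-values of ins-33, in controls and after UV, therefore cannot be read as spread between samples.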
